A study of Mus musculus with 46 samples.

Results

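Cytosolic ribosomal proteins are the protein components of the ribosome that translates messenger RNA outside the organelles. Here they were taken as every probe of the array whose annotated gene symbol is a ribosomal protein name of the large subunit (Rpl and a number), of the small subunit (Rps and a number), Rpsa, or one of the stalk proteins Rplp0, Rplp1 and Rplp2. By this rule 77 of the 25697 probes belonged to the set, and they covered 60 of the 16593 genes on the array. The choice used names only and no measured value. The large subunit holds the centre where peptide bonds form and the tunnel through which the new chain leaves, and the small subunit decodes the messenger RNA. Most of these genes are transcribed in every cell, at levels that follow the demand for protein synthesis, and their messages carry a pyrimidine-rich tract at the 5′ end through which the mTORC1 kinase controls their translation. In the testis a few have additional copies that are used mainly by germ cells, such as Rpl39l, a copy of the X-linked Rpl39.

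The arrays measured total RNA from single testes, 1 array for each and 46 in all, and the animals were adult Swiss males. The mice drank water with acrylamide, a small reactive compound that also forms in heated starchy food, or plain water. The labels give no other treatment and no genetic change, and they do not say whether any testes came from the same animal, so the p-values measure the spread between these arrays. The control and 5 doses in steps of 10-fold, 0.001 µg/ml at the lowest and 10 µg/ml at the highest with 0.01, 0.1 and 1 µg/ml between, were each given for 1 month (mice of 3 to 6 months of age), 6 months (11 to 12 months of age) or 12 months (16 to 17 months of age). Each group had 3 arrays, apart from 0.1 µg/ml at 1 month with 2 arrays. At 12 months there were 2 arrays for control, 0.001 and 0.01 µg/ml, 3 for 0.1 µg/ml, and 1 each for 1 and 10 µg/ml. The time on acrylamide and the age of the mice rise together and cannot be told apart.

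Values are the authors' processed log2 values, and a difference of 1 is a doubling. Each dose was set against the control of its time in 1 limma fit of the 15418 probes left after the dimmest 40% by mean were dropped. A probe was called higher or lower where its two-sided p, adjusted by Benjamini-Hochberg over those 15418 probes, was under 0.05. Counts at an unadjusted p under 0.05 are given beside those of all probes in this fit. In fits within sets or with set as a fixed term they are given for members only. Values after ± are standard errors of the fit unless given as SD. The labels number the arrays from 1 to 46 by time and then dose, and a set below means 8 consecutive numbers (6 in the last set), since the labels give no slide. For the mice of 6 months, set 3 holds the controls, the dose of 0.001 µg/ml and 1 array of 0.01 µg/ml. Set 4 holds the remaining arrays of 0.01 µg/ml together with the 2 doses above it, and set 5 holds 10 µg/ml. Markers of germ, Sertoli and Leydig cells were bright (Prm1, a sperm protamine, had a mean of 14.01, Clu of Sertoli cells 13.06 and Cyp17a1 of Leydig cells 13.42), while of 5 epididymis markers on the array 1 was above the brightness limit, Lcn8 with a mean of 7.79, near the floor. One array stood apart: replicate 3 of 0.001 µg/ml at 1 month, whose correlation with the 45 remaining arrays averaged 0.844, against at least 0.974 for any of those, and each count below is also given without it where it moved the count by more than 1.5 times.

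Of the 77 ribosomal protein probes 63 were bright enough to be tested, and they stand for 53 genes: 36 probes of 30 large subunit genes, 25 probes of 21 small subunit genes and 2 probes of the stalk genes Rplp0 and Rplp1. Their means over the 46 arrays ran from 7.77 to 14.21. The other 14 probes had means of 7.67 to 7.75, near the floor of the array, and 7 genes had no other probe: Rpl14, Rpl17, Rpl21, Rpl6, Rplp2, Rps15a and Rps23. Rps20, a small subunit protein, was the member with a value at the top of the table's range, at 14.45 in 1 array. The ribosomal protein probes varied more between arrays than the average probe, with no match for brightness. Their median SD over the 46 arrays was 0.215, against 0.139 for all probes tested, and their median SD within groups was 0.169 against 0.117. Without the array that stood apart the within-group values were 0.127 and 0.0911. In that array the deviations of the 63 probes from their means had an SD of 0.979, against at most 0.365 in any other. Rps21 was at 9.87 there, against 12.78 to 12.94 in the other arrays of the control and 0.001 µg/ml at 1 month, and Rpl19 was at 12.85 against 10.27 to 10.52.

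The tract that the messages of ribosomal proteins are known for was looked up at the annotated gene starts (RefSeq, mouse build GRCm38.p6), as a C within 2 bases of the start followed by at least 4 more pyrimidines, on the strand of the gene only. It was found for 18 of the 51 member genes with a start in the table (35.3%), and for 2863 of all 27025 genes (10.6%). The sequences below are shown because they belong to genes that the results turn on, with and without the tract. Each gives 15 bases before the start and 15 from the start on, 5′ to 3′, and the capitals mark the tract. Rps27, Rps10 and Rpl35a, which were lower at 10 µg/ml after 6 months, have it, as does Rps6, while Rpl5, Rps9, Rpl22 and Rps4x have none in this window. Rpl35a and Rpl22 have several annotated starts: the start of Rpl35a that holds the tract and the first of Rpl22 are shown, and no start of Rpl22 holds it.
Rps27 (chr3:90213634-90213663, minus strand): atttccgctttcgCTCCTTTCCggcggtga
Rps10 (chr17:27635230-27635259, minus strand): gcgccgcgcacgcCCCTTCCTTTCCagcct
Rpl35a (chr16:33056467-33056496, plus strand): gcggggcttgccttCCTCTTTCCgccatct
Rps6 (chr4:86857353-86857382, minus strand): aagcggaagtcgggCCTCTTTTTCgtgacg
Rpl5 (chr5:107900513-107900542, plus strand): tctcacgtcgcttgcgtgctggtggtgcta
Rps9 (chr7:3704026-3704055, plus strand): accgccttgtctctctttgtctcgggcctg
Rpl22 (chr4:152324421-152324450, plus strand): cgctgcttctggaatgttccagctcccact
Rps4x (chrX:102189377-102189406, minus strand): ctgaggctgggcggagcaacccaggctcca
Of the 10 genes that were lower at 10 µg/ml after 6 months 9 have a start in the table and 5 of these hold the tract. None of the 3 genes that were higher holds it, and 10 of the 34 genes with no call do. These are descriptions of the annotated starts, and the start used in the testis was not measured.

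After 6 months of 10 µg/ml the ribosomal protein genes moved in both directions on the deposited values: 10 probes were lower than in the controls, 3 were higher and the rest did not pass the threshold. The 13 probes called were 20.6% of the set, beside 17.4% of all probes tested, and the median difference was -0.018 for the set and 0.017 for all probes. On this scale the share called was near that of the whole array. Both the share and the split depended on the scaling. After cyclic loess 2 members were higher and 16 lower, which was 28.6% of the set beside 16% of all probes. With median-centred log2 intensities 0 were higher and 28 lower, 44.4% beside 19.9%, and the median difference was -0.508 for the set and -0.162 for all probes. The count was 24 without the array that stood apart (38.1%, beside 32.9% of all probes), 4 when the first control replicate of 6 months was left out (6.35%, beside 8.1%) and 7 when replicate 3 of 10 µg/ml was (11.1%, beside 8.06%). The array that stood apart is in neither group compared, and without it 5 members were higher and 19 lower. Among the falls called only then were Rps21 (-0.70 ± 0.16, adjusted p = 0.0014) and Rpl37a (-0.70 ± 0.14, adjusted p = 0.0005). In bulk tissue, fewer cells of a type and less RNA per cell cannot be told apart. Dose and set cannot be told apart either, since controls and 10 µg/ml share no set.

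**Figure D1:**
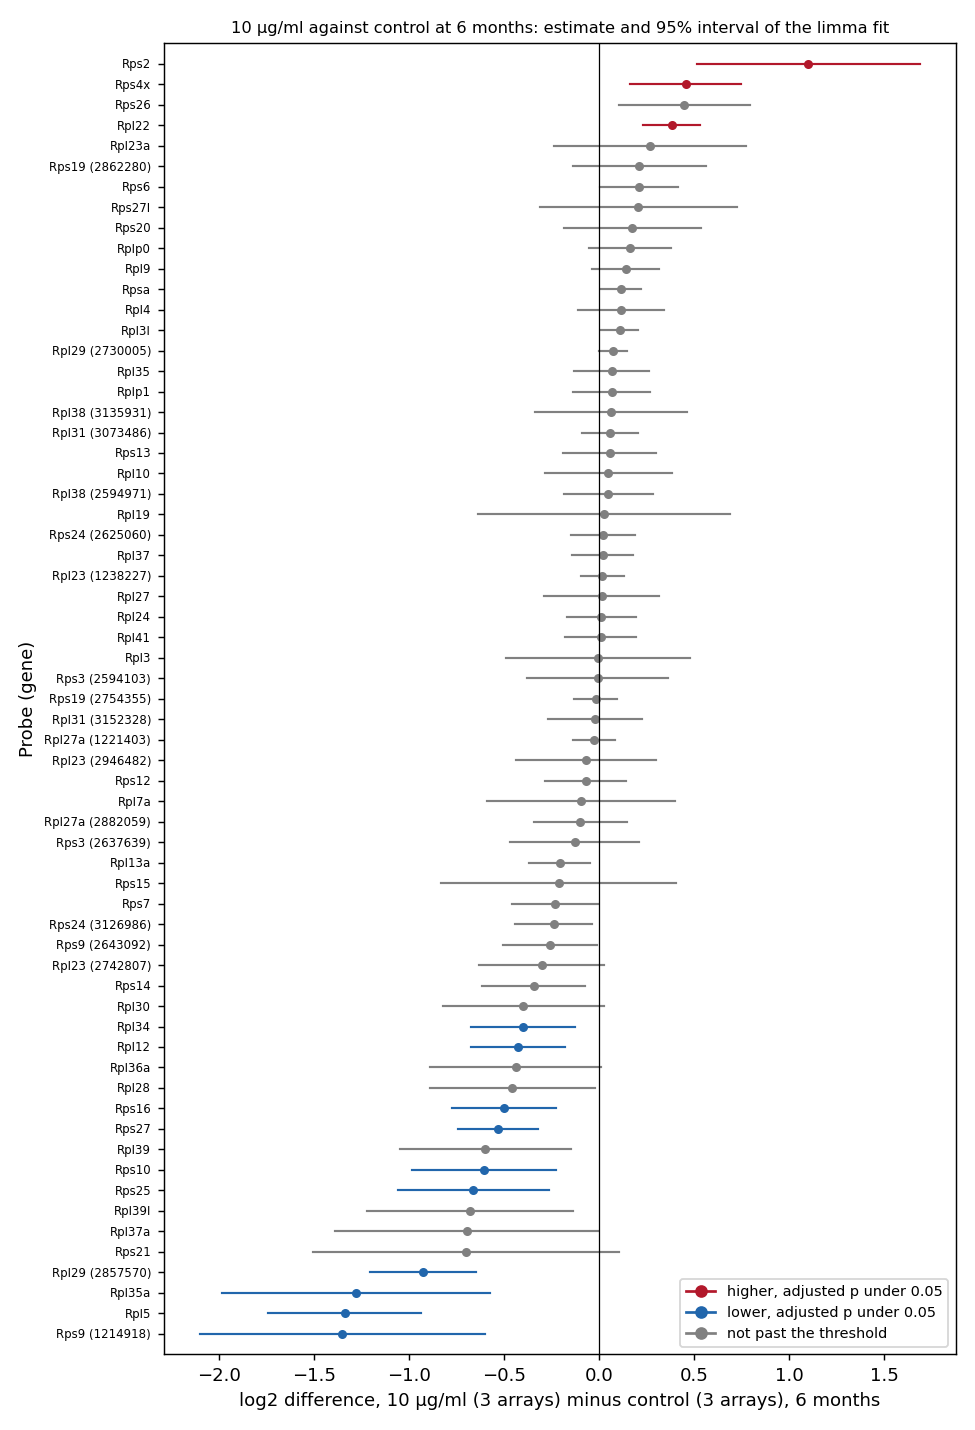
Log2 difference between 10 µg/ml and control at 6 months (3 arrays each) for the 63 ribosomal protein probes tested, with 95% intervals of the limma fit; red and blue mark probes past an adjusted p of 0.05. The 10 lower probes range from -1.35 (Rps9) to -0.40 (Rpl34) and the 3 higher ones from 0.38 (Rpl22) to 1.10 (Rps2), while most intervals cover 0.

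The large subunit gave 5 of the 10 falls. Rpl5, which carries the 5S ribosomal RNA into the large subunit and can also bind the p53 regulator MDM2, was at 12.83, 12.59 and 12.79 in the controls and 11.68, 11.36 and 11.16 at 10 µg/ml. The 2 groups did not overlap, and the highest treated array lay about 1 log2 unit below the lowest control. The difference was -1.34 ± 0.20, a 2.53-fold lower level (adjusted p = 0.000199). Rpl29, a large subunit protein first described as a heparin-binding cell surface protein, was at 10.93, 10.96 and 11.03 in the controls and 9.91, 10.11 and 10.12 at 10 µg/ml. All 3 controls lay close together and above every treated array. It fell by 0.93 ± 0.14 (adjusted p = 0.000199). Rpl35a, whose human counterpart is mutated in some families with Diamond-Blackfan anaemia, was at 12.65, 12.29 and 12.52 in the controls and 11.22, 11.48 and 10.94 at 10 µg/ml. It fell by 1.28 ± 0.35 without overlap (adjusted p = 0.0117). Rpl12, at the base of the stalk that recruits elongation factors, fell by 0.43 ± 0.12 (adjusted p = 0.0157). Rpl34 fell by 0.40 ± 0.13 (adjusted p = 0.0375).

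The small subunit gave the other 5. Rps9, near the channel where messenger RNA enters, had a pair of tested probes. The probe ILMN_1214918 was at 10.82, 10.52 and 10.68 in the controls and 9.47, 9.27 and 9.24 at 10 µg/ml, so it fell by 1.35 ± 0.37 (adjusted p = 0.012). The groups were more than 1 log2 unit apart on that probe. On the other probe, ILMN_2643092, the controls were at 11.33, 11.43 and 11.54 and the treated arrays at 11.29, 11.16 and 11.09, a difference of -0.26 ± 0.12 (adjusted p = 0.137). The probes of Rps9 thus had the same sign and a different size, and what each of them binds was not tested. Rps27, a zinc-finger protein of the small subunit, was at 13.29, 13.29 and 13.32 in the controls and 12.81, 12.74 and 12.76 at 10 µg/ml. Its arrays were tight within each group, and it fell by 0.53 ± 0.10 (adjusted p = 0.00135). Rps25, which many viral internal entry sites need for initiation, fell by 0.66 ± 0.19 (adjusted p = 0.0191). Rps10, in the head of the small subunit and another gene of Diamond-Blackfan anaemia in people, fell by 0.60 ± 0.19 (adjusted p = 0.0243). Rps16, whose tail reaches the peptidyl transfer RNA, fell by 0.50 ± 0.13 (adjusted p = 0.0113).

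The probes higher at 10 µg/ml were 3. Rps2, like Rps9 near the entry of the messenger RNA, was at 10.85, 11.48 and 10.98 in the controls and 12.09, 12.33 and 12.19 at 10 µg/ml. It rose by 1.10 ± 0.29 (adjusted p = 0.00941), and the spread of the controls was wider than that of the treated arrays. Rpl22, an RNA-binding large subunit protein that mice can live without, was at 8.28, 8.36 and 8.45 in the controls and 8.73, 8.71 and 8.80 at 10 µg/ml. It rose by 0.38 ± 0.073 (adjusted p = 0.00119), while Rpl22l1, its paralogue and outside the naming rule, fell by 0.38 ± 0.11 (adjusted p = 0.0181). In mice the protein of Rpl22 is known to hold down the message of Rpl22l1, and whether it did so here was not tested. Rps4x, the X-linked form of a small subunit protein, was at 10.06, 10.05 and 10.38 in the controls and 10.65, 10.54 and 10.66 at 10 µg/ml. It rose by 0.46 ± 0.14 (adjusted p = 0.0269). With median-centred log2 intensities none of these 3 rises passed the threshold, and that of Rps4x turned to -0.078.

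The group at 0.01 µg/ml after 6 months crosses the border between set 3 and set 4, so the same dose can be seen on both sides of it. Replicate 1 (number 24) is the last array of set 3, and replicates 2 and 3 (numbers 25 and 26) open set 4. Rps9 (ILMN_1214918) was at 11.23 in replicate 1 and at 9.56 and 9.38 in the others. Rpl5 was at 12.90 and then at 11.94 and 11.61, and Rpl35a at 12.63 and then at 11.59 and 11.38. For all 3 probes the arrays of this 1 dose were thus about 1 log2 unit or more apart. All 13 probes called at 10 µg/ml had the same sign in this step as in that comparison, as did 97.2% of the 2679 probes called over the whole array. The step was above 0.5 in size for 12 of the 63 ribosomal protein probes (19%), beside 8.4% of all probes tested. It rests on 1 array against 2, so it has no test.

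The values by sample number show how far the border reaches. Leaving out the array that stood apart, Rpl5 ranged from 11.98 to 13.03 over the 23 arrays up to number 24 and from 11.16 to 11.97 over the 22 arrays from number 25 on. Rpl35a ranged from 12.07 to 12.71 and then from 10.94 to 11.82, and Rps9 (ILMN_1214918) from 10.09 to 11.23 and then from 9.17 to 9.79. For these 3 probes every array from number 25 on was lower than every earlier one, whatever its dose or time, with a narrow gap for Rpl5. That was 4.76% of the set, beside 1.42% of all probes tested, and 0 members were higher throughout, beside 0.0973% of all probes. This split was made after the values had been seen. Controls of 12 months lie on the low side too: Rpl5 was at 11.61 and 11.22 in them, and Rps9 (ILMN_1214918) at 9.59 and 9.63.

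**Figure D2:**
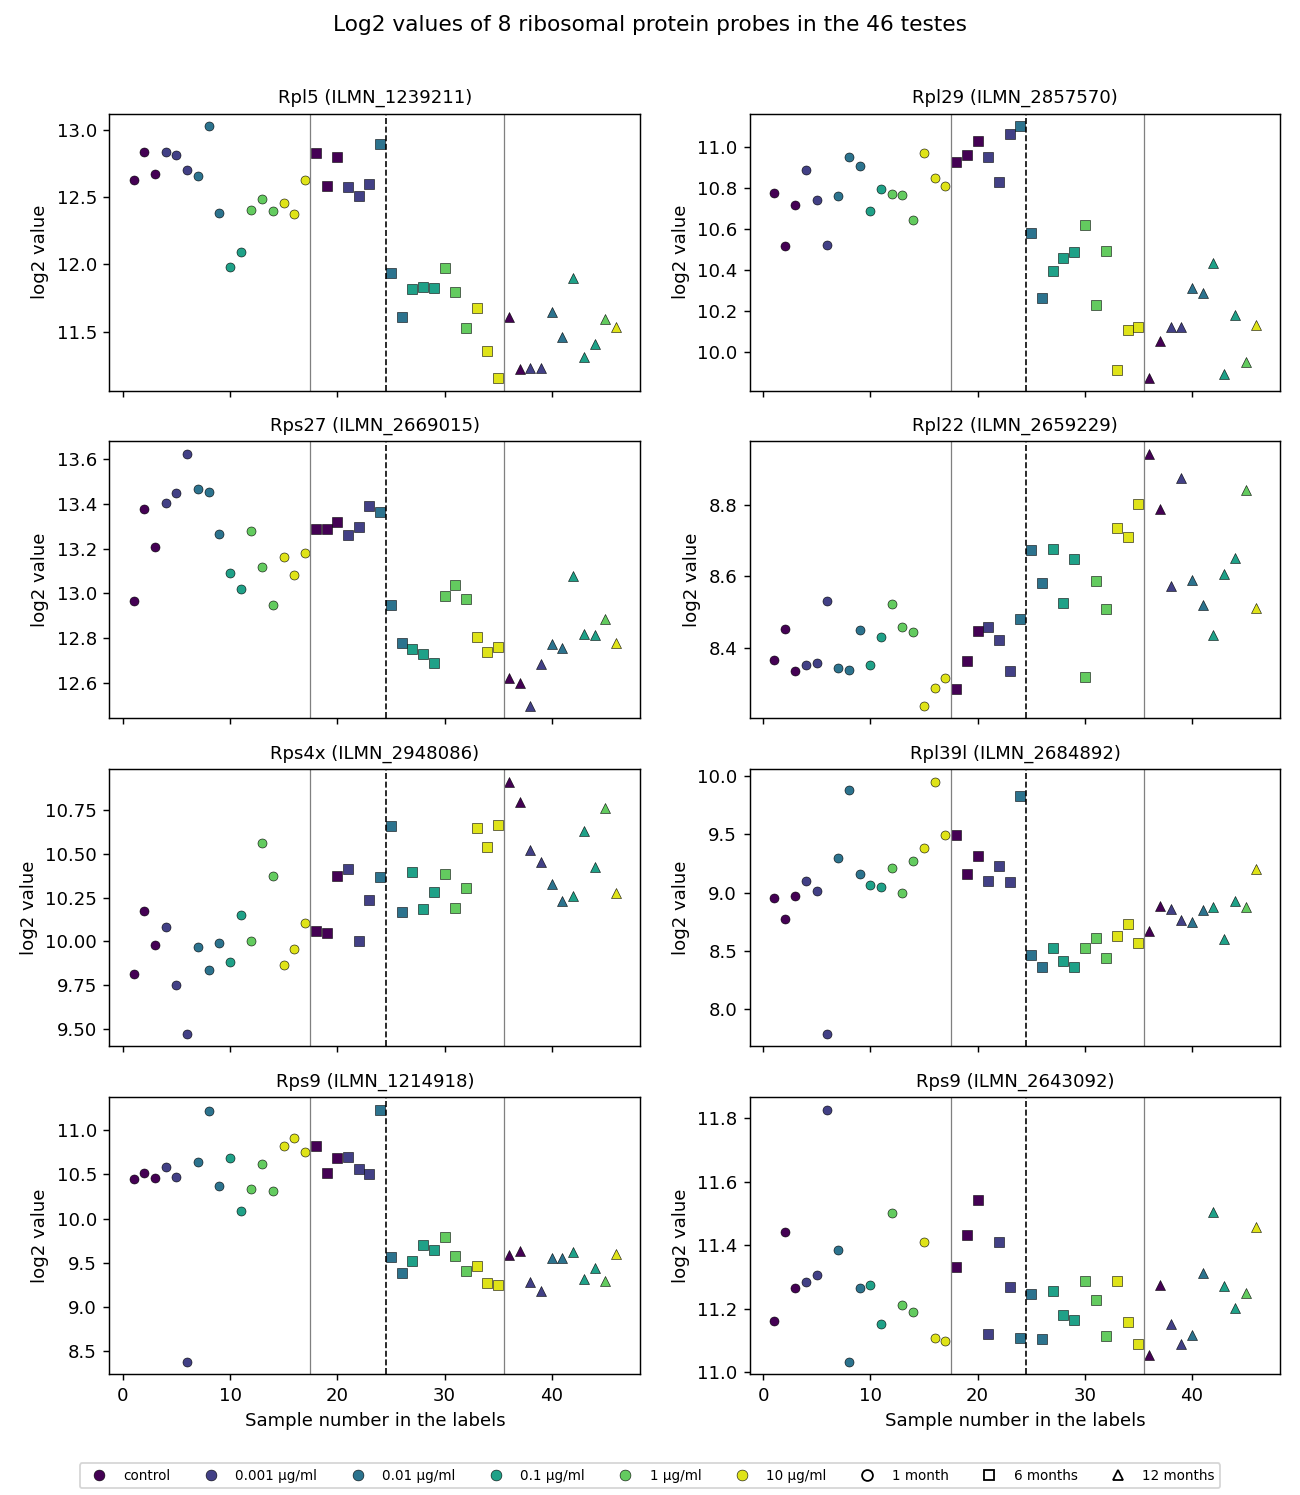
Log2 values of 8 ribosomal protein probes in all 46 testes against the sample number, with colours for dose and symbols for time; grey lines divide the times and the dashed line the arrays up to number 24 from those after it. Rpl5, Rpl29, Rps27, Rpl39l and Rps9 (ILMN_1214918) drop at the dashed line inside the group of 0.01 µg/ml, from 12.90 to 11.94 for Rpl5, while the other Rps9 probe shows no such drop.

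**Figure D3:**
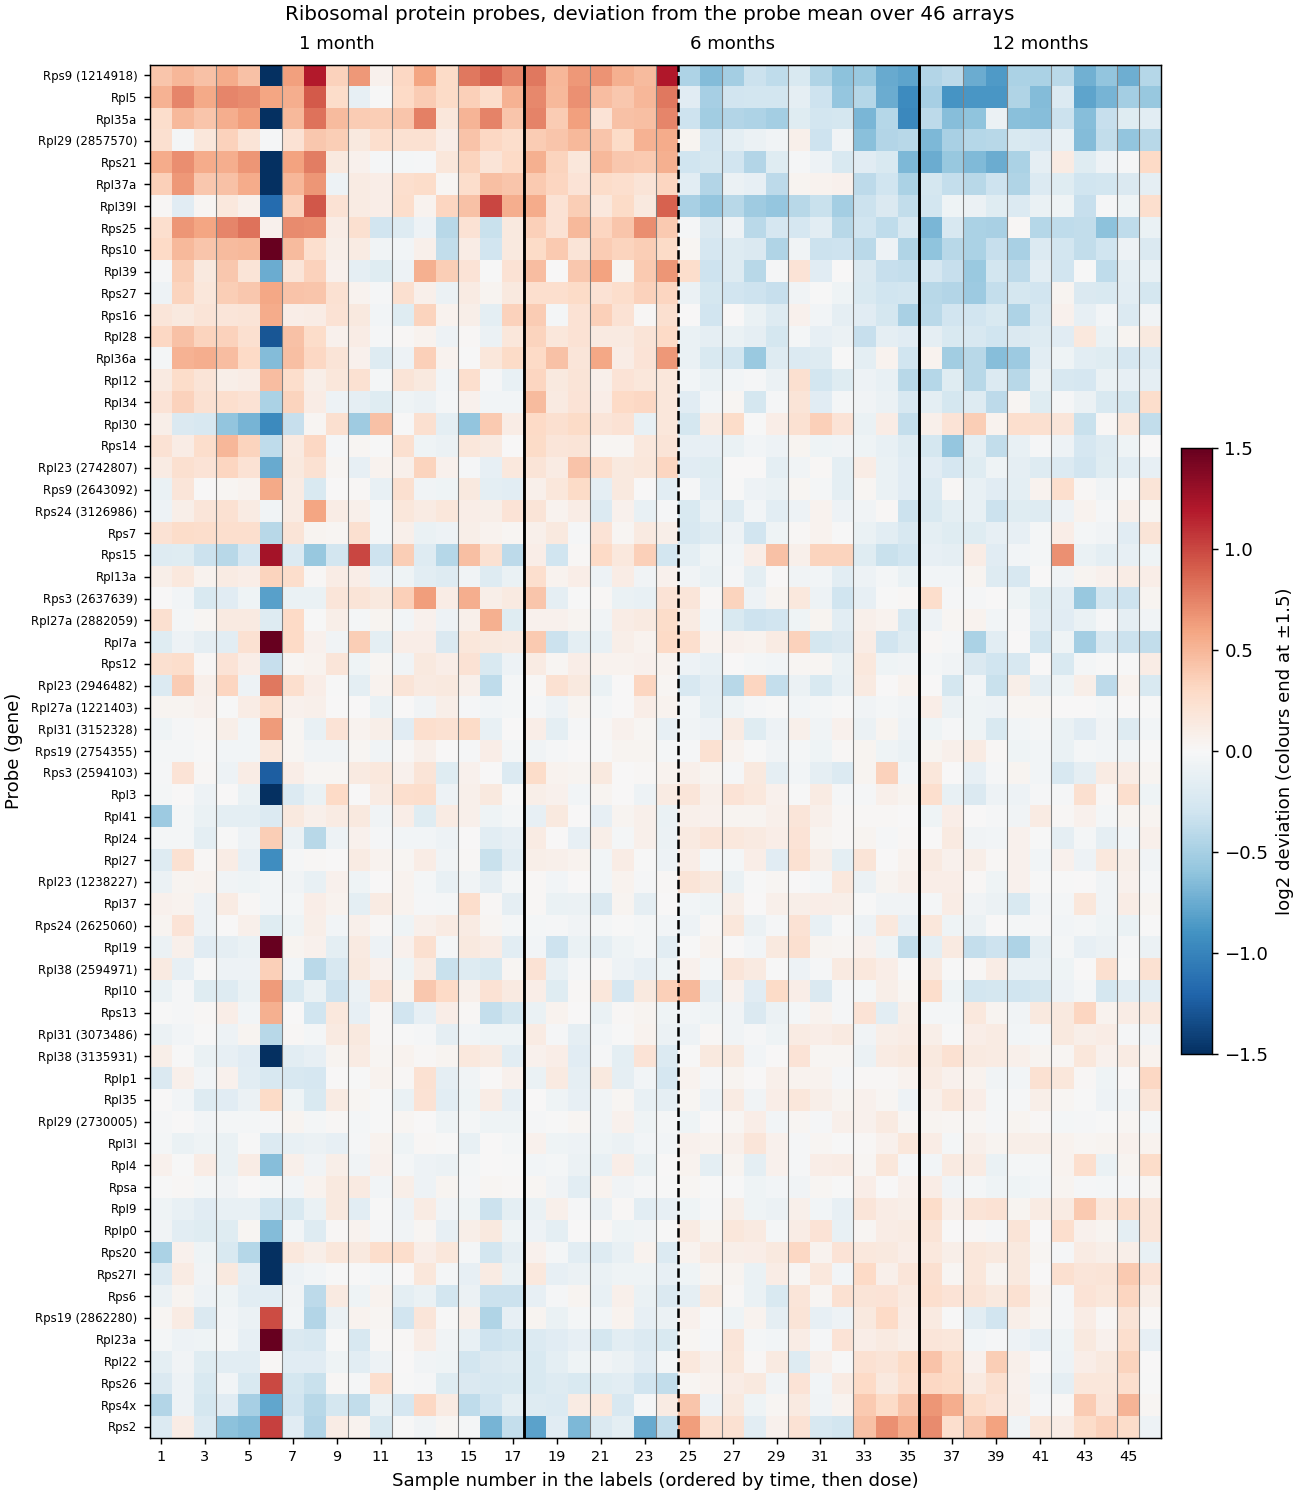
Deviation of each of the 63 ribosomal protein probes (rows, ordered by their difference at 10 µg/ml after 6 months) from its own mean in each of the 46 arrays (columns, by sample number), in log2 units; thick lines divide the times, thin lines the doses, and the dashed line follows number 24. The upper rows are above their mean before the dashed line and below it after, and the column of number 6, the array that stands apart, has the strongest colours of both signs.

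The lower doses at 6 months gave fewer calls. At 0.1 µg/ml, in set 4, 5 ribosomal protein probes were called (7.94% of the set, beside 6.03% of all probes tested), 1 higher and 4 lower. The split was 0 and 8 after cyclic loess, 0 and 3 after normexp and quantile normalization, and 0 and 40 with median-centred intensities. Those 40 were 63.5% of the set, beside 30.5% of all probes, with a median difference of -0.639 for the set and -0.272 for all probes, and the 8 after cyclic loess were 12.7% beside 5.24%. The called falls were those of Rpl5 (-0.91 ± 0.20), Rpl29 (-0.52 ± 0.14), Rps27 (-0.58 ± 0.10) and Rpl39l (-0.89 ± 0.26), and Rpl22 rose by 0.25 ± 0.073, a rise that turned to -0.14 with median-centred intensities. At 1 µg/ml, in set 4 as well, the 1 probe called was that of Rpl5 (1.59% of the set, beside 0.311% of all probes). It was at 11.97, 11.79 and 11.53 and fell by 0.97 ± 0.20 (adjusted p = 0.0366). With median-centred intensities the count at 1 µg/ml was 29, all lower (46%, beside 20.4%). Without the array that stood apart the counts were 20 (31.7%, beside 18.5% of all probes) and 10 (15.9%, beside 8.83%). Both counts were smaller without single arrays of the groups compared. The count was 2 at 0.1 µg/ml without any 1 of the 3 controls or the 3 treated arrays (3.17%, beside 1.25% to 2.61% of all probes). At 1 µg/ml it was 0 likewise, beside 0% to 0.0389%. Without replicate 1 of 0.01 µg/ml at 6 months the counts were 10 (15.9%, beside 9.16%) and 5 (7.94%, beside 3.89%). The count at 1 µg/ml was 2 without replicate 3 of that group (3.17%, beside 0.986%). With set as a fixed term, which the arrays of 0.01 µg/ml on either side of the border make possible, both counts were 0. So were those at an unadjusted p under 0.05, and 0% of all probes were called. In that fit the difference of Rpl5 was 0.21 ± 0.25 at 0.1 µg/ml and 0.15 ± 0.25 at 1 µg/ml. Its step between sets 3 and 4 rests on replicate 1 of 0.01 µg/ml against replicates 2 and 3. Replicate 1 had a weight of 0.269 in the fit with array weights, the lowest but for the array that stood apart.

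At the lowest 2 doses, 0.001 and 0.01 µg/ml, limma called 0 ribosomal protein probes at 6 months, beside 0% of all probes in both. An unadjusted p under 0.05 was found for 1 and 10 of the 63 members, and for 140 and 1316 of all 15418 probes. The controls and 0.001 µg/ml share set 3, and there Rpl5 was at 12.57, 12.51 and 12.60 against 12.83, 12.59 and 12.79 in the controls. The largest differences among members at 0.001 µg/ml were between -0.22 and 0.33.

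Over the 6 doses at 6 months, 20 ribosomal protein probes followed the dose rank (31.7%, beside 26.5% of all probes tested), 6 upward and 14 downward. The split was 3 and 20 after cyclic loess (36.5%, beside 24.8% of all probes) and 1 and 44 with median-centred intensities (71.4%, beside 43.7%). The slope, in log2 per step from control (rank 0) to 10 µg/ml (rank 5), was -0.29 ± 0.062 for Rps9 (ILMN_1214918), -0.27 ± 0.033 for Rpl5, -0.25 ± 0.058 for Rpl35a and -0.18 ± 0.023 for Rpl29. Downward slopes also passed for Rps25 (-0.17), Rpl39l (-0.16), Rps10 (-0.14), Rpl39 (-0.13), Rpl36a (-0.11) and Rps27 (-0.11). Those of Rps16, Rpl12, Rpl34 and Rpl13a were smaller, between -0.094 and -0.037. Upward slopes passed for Rps2 (0.18 ± 0.048), Rps26 at the exit of the messenger RNA (0.095), Rps4x (0.068), Rpl22 (0.061), the kinase substrate Rps6 (0.046) and Rpl3l (0.023). With median-centred intensities the slopes of Rpl22 (-0.018), Rps26 (-0.042), Rps6 (-0.099) and Rps4x (-0.074) were downward. The count was 31 without the array that stood apart (49.2%, beside 41.1% of all probes).

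Within sets no member slope of 6 months was called. Among the 11 arrays of 6 months numbered 25 to 35, which hold 0.01 to 10 µg/ml, limma called 0 ribosomal protein probes. These arrays are fitted with the 12-month arrays of sets 5 and 6. Of all probes tested 27 were called (0.175%), and 9 members had an unadjusted p under 0.05. There the slope was -0.13 ± 0.055 for Rpl5 (adjusted p = 0.348), -0.12 ± 0.042 for Rpl29 (adjusted p = 0.236) and -0.060 ± 0.033 for Rps9 (ILMN_1214918). Rpl39l had a slope of 0.082 ± 0.029 in these arrays, opposite in sign to that over all 18. The slopes of Rps6 (0.084) and Rps4x (0.075) were larger there than over all 18 arrays. Within sets 1 to 3, which hold the control, 0.001 µg/ml and 1 array of 0.01 µg/ml of this time, 0 probes were called and 0 had an unadjusted p under 0.05, beside 0% of all probes called. With set as a fixed term the slope at 6 months could not be estimated, so the dose trend of this time and the set cannot be told apart.

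**Figure D4:**
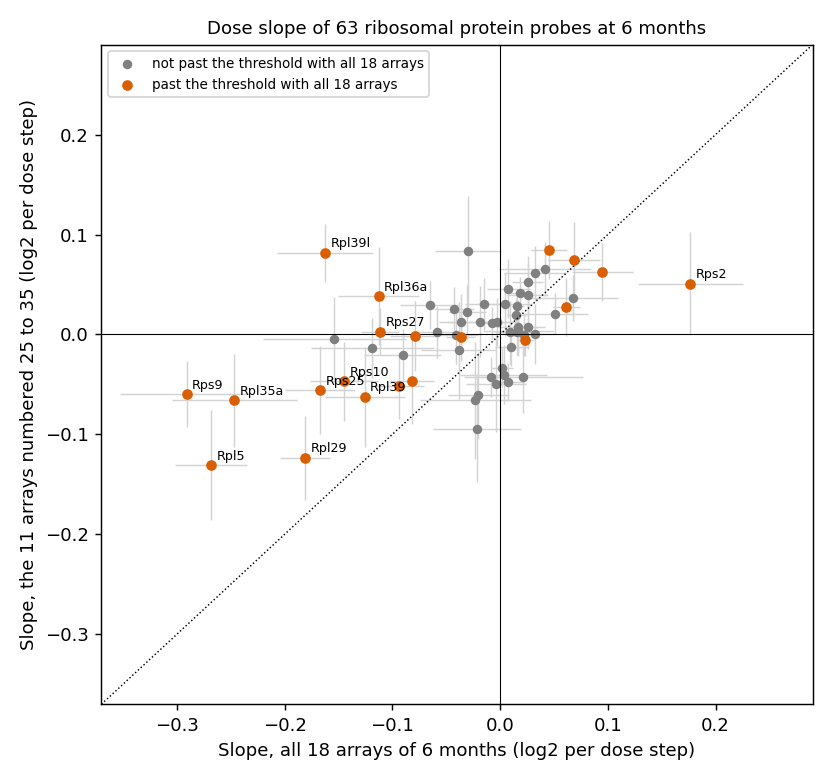
Slope over the dose rank at 6 months for each of the 63 ribosomal protein probes, with all 18 arrays (horizontal) and with the 11 arrays numbered 25 to 35 (vertical), in log2 per dose step with standard errors; the dotted line marks equal slopes. Most probes past the threshold with all arrays lie nearer to 0 on the vertical axis, as Rpl5 with -0.27 and -0.13, and Rpl39l lies on opposite sides of 0.

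After 1 month limma called 0 ribosomal protein probes at any dose. From the lowest dose to the highest, 18, 4, 4, 9 and 7 of the 63 had an unadjusted p under 0.05. The matching counts over all 15418 probes were 3966, 308, 912, 1654 and 1126. In the same order, of all probes tested 0%, 0%, 0.00649%, 0.298% and 0.0713% were called. The array that stood apart is 1 of the 3 at 0.001 µg/ml. The dose trend at 1 month had 4 calls (6.35%, beside 5.27% of all probes), which were 9 without that array (14.3%, beside 7.55%). Rps25 (-0.15 ± 0.033), Rps10 (-0.15 ± 0.031) and Rpl13a (-0.062 ± 0.013), which takes part in translational silencing outside the ribosome, had downward slopes. Rps3, a protein at the entry channel that also acts in DNA repair, had an upward slope of 0.12 ± 0.028 on its dimmer probe ILMN_2637639 (adjusted p = 0.0165). The split of 1 upward and 3 downward was 1 and 7 after cyclic loess (12.7%, beside 5.36%) and 0 and 12 with median-centred intensities (19%, beside 14.8%). Rps25 was at 11.46, 11.87 and 11.80 in the controls of 1 month, at 11.01, 11.13 and 10.79 at 1 µg/ml and at 11.42, 10.87 and 11.35 at 10 µg/ml. Every array of the highest 2 doses lay below every control, by a narrow gap for replicate 1 of 10 µg/ml. The control lies in set 1 and these doses in sets 2 and 3, and with set as a fixed term 0 members were called, with 5 at an unadjusted p under 0.05.

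The groups of 1 and 10 µg/ml at 12 months are 1 array each, whose spread is taken to be that of the other groups. After 12 months limma called 0 ribosomal protein probes at any dose and 0 in the dose trend, with 5 in the trend at an unadjusted p under 0.05. Of all probes 0%, 0.013%, 0.0389%, 0.0324% and 0.0195% were called from 0.001 to 10 µg/ml, and 0.0195% in the trend. Over all 12 comparisons with 0 members called, 67 member tests had an unadjusted p under 0.05. Of these 18 came from 0.001 µg/ml at 1 month, where 3966 of all 15418 probes had one too. Without the array that stood apart there were 7 calls in the 12 comparisons (0.926% of the member tests, beside 0.582% of all). Without replicate 1 or 2 of its own group, 0.001 µg/ml at 1 month, the 12 comparisons gave 23 and 26 calls (3.04% and 3.44%, beside 2.53% and 2.76%), and without replicate 1 of 0.01 µg/ml at 6 months they gave 5 (0.661%, beside 0.575%). In the trend at 12 months 1605 of all 15418 probes had an unadjusted p under 0.05, beside the 5 members above. The smallest p-values of the trend among members were those of Rpl22 (-0.052 ± 0.018, adjusted p = 0.247), Rps27 (0.066 ± 0.025) and Rps24 (0.061 ± 0.024). Their signs for Rpl22 and Rps27 are opposite to the slopes at 6 months, and at 12 months the low doses lie in set 5 and the high ones in set 6. Rpl22 was at 8.94 and 8.79 in the controls and at 8.51 in the 1 array at 10 µg/ml. The trend had 1 call without the array that stood apart (1.59%, beside 1.69% of all probes) and 4, all upward, with sets 4 to 6 alone (6.35%, beside 2.58%).

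Tests of the difference between slopes gave 10 ribosomal protein probes for 6 months against 1 month (15.9%, beside 11.1% of all probes), 4 more upward and 6 more downward at 6 months. The split was 2 and 6 after cyclic loess (12.7%, beside 10.2%) and 0 and 7 with median-centred intensities (11.1%, beside 7.19%), and the count was 6 without replicate 1 of the control at 6 months (9.52%, beside 7.69%). The largest were those of Rps9 (ILMN_1214918, -0.39 ± 0.088), Rpl35a (-0.32 ± 0.083) and Rpl39l (-0.30 ± 0.063). For 12 months against 1 month there were 4 (6.35%, beside 3.88% of all probes): Rps10, Rps27 and Rpl13a were more upward at 12 months and Rps3 (ILMN_2637639) more downward. The split was 6 and 1 after cyclic loess (11.1%, beside 3.85%) and 24 and 0 with median-centred intensities (38.1%, beside 20.6%). The count was 10 without the array that stood apart (15.9%, beside 10.5%), 2 without replicate 2 of 1 µg/ml at 1 month, 1 and 2 without replicates 1 and 2 of the 12-month control, and 2 without the lone array of 10 µg/ml, while 1.22% to 2.43% of all probes were called in these 4 fits. With set as a fixed term limma called 0 members in this second test, with 1 at an unadjusted p under 0.05, and 0% of all probes, and the first test could not be estimated.

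Between times, with the 6 doses given equal weight, the share of ribosomal protein probes called was near that of the array as a whole for 12 against 1 months on the deposited values, and its distance from that share varied with the times and the scaling. From 1 to 12 months 26 probes were called (41.3%, beside 41.2% of all probes tested), 8 higher and 18 lower. The split was 5 and 25 after cyclic loess (47.6%, beside 37.8%) and 3 and 28 with median-centred intensities (49.2%, beside 31%), and the count was 41 without the array that stood apart (65.1%, beside 55.2%). The median difference of the set was -0.031, beside 0.011 for all probes. Time and set overlap so closely here that the 2 cannot be told apart, and 25 of the 26 probes called (96.2%) had the sign of the step inside the group of 0.01 µg/ml at 6 months, beside 93.1% of all probes called.

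The falls from 1 to 12 months were led by the genes that were low at 10 µg/ml. Rpl5 fell by 1.04 ± 0.099 (adjusted p = 1.95e-08), Rps9 (ILMN_1214918) by 0.99 ± 0.18, Rpl35a by 0.74 ± 0.17 and Rpl29 by 0.66 ± 0.068 (adjusted p = 4.72e-08). In the 17 arrays of 1 month Rpl29 lay between 10.52 and 10.97, and in the 11 arrays of 12 months between 9.87 and 10.44, so the times did not overlap. Rps25 (-0.57), Rps10 (-0.55), Rps27 (-0.48), Rpl37a (-0.46), Rpl36a (-0.43) and Rpl7a (-0.36) completed the 10 largest falls among the probes called. Without the array that stood apart the difference was -0.28 for Rpl7a and -0.58 for Rps21, which is not among those 10. The rises were those of Rps4x (0.52 ± 0.071), Rps2 (0.38), Rps6 (0.29), Rpl22 (0.29 ± 0.037), Rpl9 in the large subunit (0.29), Rplp0 (0.13), Rplp1 (0.13) and Rpl3l (0.11). Rps4x ranged from 9.47 to 10.56 at 1 month and from 10.23 to 10.91 at 12 months, with overlap. With median-centred intensities Rplp0 turned to -0.017.

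From 1 to 6 months 13 probes were called (20.6%, beside 17.3% of all probes), 6 higher and 7 lower. The split was 3 and 12 after cyclic loess (23.8%, beside 15.8%) and 0 and 19 with median-centred intensities (30.2%, beside 19.5%). The count was 20 without the array that stood apart (31.7%, beside 32%), 8 without replicate 1 of 0.1 µg/ml at 1 month (12.7%, beside 12.1%) and 8 without replicate 3 of 0.01 µg/ml at 6 months (12.7%, beside 13.7%). Among the probes called, Rps9 (ILMN_1214918, -0.47 ± 0.15) and Rpl5 (-0.45 ± 0.082) had the largest falls, and Rps4x (0.33 ± 0.059) and Rpl30 (0.27 ± 0.086) the largest rises. The fit of sets 1 to 3 alone has no set term, and at no dose do both times share a set there. Within sets 1 to 3, where the control and the lowest doses of both times lie, 0 members were called and 4 had an unadjusted p under 0.05, beside 0.013% of all probes called. There Rpl5 differed by 0.0034 ± 0.078 and Rps9 (ILMN_1214918) by 0.49 ± 0.26, while Rps4x differed by 0.35 ± 0.11 (adjusted p = 0.486), as much as over all arrays.

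From 6 to 12 months 9 probes were called (14.3%, beside 9.5% of all probes), 3 higher and 6 lower. The split was 2 and 10 after cyclic loess (19%, beside 8.97%) and 0 and 2 with median-centred intensities (3.17%, beside 1.08%). The count was 25 without the array that stood apart (39.7%, beside 24.2%), 18 when the lone 12-month array of 10 µg/ml was left out (28.6%, beside 21.9%) and 14 when replicate 3 of the 6-month group of 0.01 µg/ml was (22.2%, beside 12.1%). Among the probes called, Rpl5 (-0.59 ± 0.098) and Rpl29 (-0.48 ± 0.067) had the largest falls and Rpl9 (0.20 ± 0.043) the largest rise. The largest rise among all members, not called, was 0.29. Within sets 4 to 6, over the doses present at both times, the 1 member called was Rpl39l, which was higher at 12 months by 0.42 ± 0.053 (adjusted p = 0.00201), beside 1.61% of all probes. That fit has no set term, and at no dose do both times share a set, so time and set cannot be told apart. Over all arrays the difference of Rpl39l between these times was 0.054 ± 0.13. The result for Rpl39l in sets 4 to 6 comes from a comparison added after the data were seen.

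**Figure D5:**
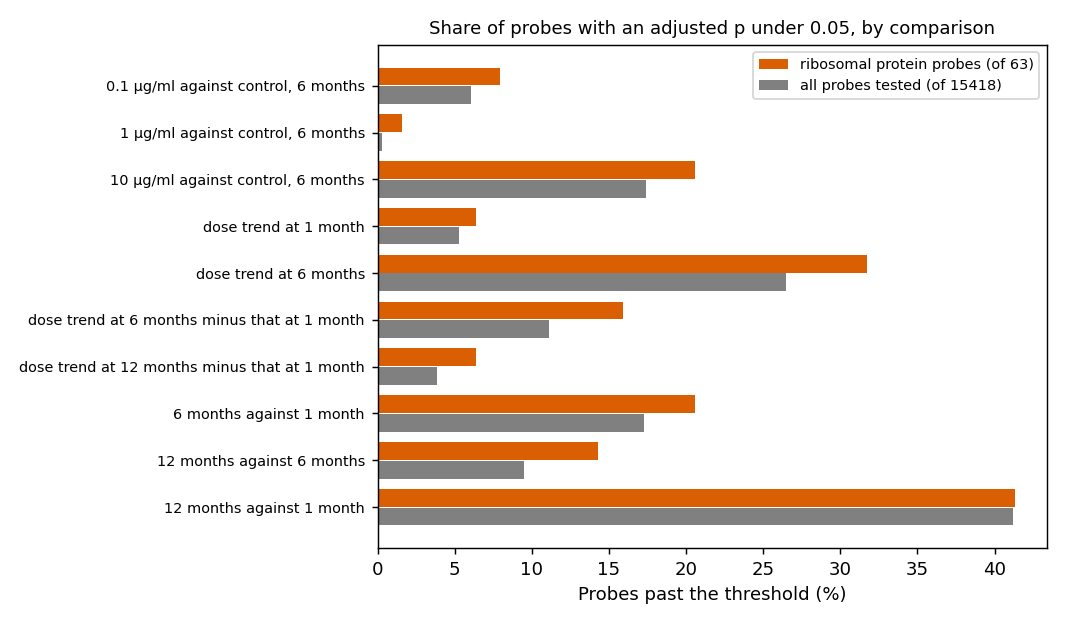
Share of probes past an adjusted p of 0.05 among the 63 ribosomal protein probes (orange) and among all 15418 probes tested (grey), for the 10 comparisons in which at least 1 ribosomal protein probe was called. The orange bar is the longer in each pair shown, by little for 20.6% and 17.4% at 10 µg/ml after 6 months and 41.3% and 41.2% for 12 months against 1 month. Comparisons with 0 members called are left out, and in some of them other probes were called, as 0.298% of all at 1 µg/ml after 1 month. The pairs share arrays.

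Rpl39l, the germ cell copy of Rpl39, lines the exit tunnel of ribosomes in spermatocytes and spermatids and is needed for normal sperm in mice. At 6 months it was at 9.50, 9.16 and 9.31 in the controls, 9.10, 9.23 and 9.09 at 0.001 µg/ml, and 8.63, 8.73 and 8.57 at 10 µg/ml. The 10 µg/ml arrays were lower than all of these, by 0.68 ± 0.26 against control (adjusted p = 0.073). At 0.01 µg/ml it was at 9.82 in replicate 1 and 8.46 and 8.36 in the others, so the step within that dose was larger than the difference between doses. At 1 month the direction was the other way: 8.96, 8.77 and 8.97 in the controls against 9.38, 9.95 and 9.49 at 10 µg/ml, a difference of 0.71 ± 0.26 (adjusted p = 0.441). Over the 46 arrays the tested genes most like Rpl39l in pattern were Galnt3 (Pearson r = 0.941), Gm12657 (0.93), Smu1 (0.913), Hsp90aa1 (0.913) and Gng5 (0.911). The arrays share the sets and the one that stood apart, without which r for Galnt3 was 0.934, so these are descriptions.

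Rpl39 itself, on the X chromosome, was at 11.31, 10.85 and 11.25 in the 6-month controls and 10.62, 10.50 and 10.49 at 10 µg/ml, a difference of -0.60 ± 0.22 (adjusted p = 0.0578) without overlap. The X-linked Rpl36a differed by -0.44 ± 0.22 (adjusted p = 0.172) and the X-linked Rpl10 by 0.050 ± 0.16 (adjusted p = 0.866). With Rps4x these are the 4 X-linked members, and they did not share a direction. Rpl3l, the copy of Rpl3 that is known from skeletal and heart muscle, lay near the floor of the array at 7.73 to 8.12, and Rpl3 differed by -0.0050 ± 0.24. Rps27l, a paralogue of Rps27 that p53 induces, differed by 0.21 ± 0.25 (adjusted p = 0.626) where Rps27 fell, and the difference between the paralogues was not tested. The stalk proteins Rplp0 and Rplp1, which bring elongation factors to the ribosome, differed by 0.16 ± 0.11 and 0.066 ± 0.099, neither past the threshold.

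Several tested probes were present for 9 genes, and calls seldom covered all of them. Besides Rps9, Rpl29 had a second probe (ILMN_2730005) between 7.70 and 7.90 in every array, where little difference can be seen, and it differed by 0.074 ± 0.037 at 10 µg/ml after 6 months. Rps24 fell by 0.21 ± 0.050 from 1 to 12 months on ILMN_3126986 and differed by -0.053 ± 0.042 on ILMN_2625060. Rpl23 fell by 0.23 ± 0.080 on ILMN_2742807 over the same times, beside -0.20 ± 0.090 on ILMN_2946482 and 0.060 ± 0.028 on ILMN_1238227. Rpl31 fell by 0.17 ± 0.060 on ILMN_3152328 and differed by 0.056 ± 0.036 on ILMN_3073486. Ribosomal protein genes have many processed pseudogenes, and how far these add to a probe's signal was not tested.

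Other genes of translation were looked at with lists chosen with results of these data known. At 10 µg/ml after 6 months 17.4% of all probes were called, and the counts of each list are to be read against that. Of 31 tested initiation factor genes 6 were higher and 3 lower, with a median difference of 0.044, and Eif4h, a helper of the helicase Eif4a, rose by 0.62 ± 0.11. Of 9 genes with elongation factor names 0 were higher and 1 lower. It was Eef1e1 (-0.33 ± 0.10), which despite its name is known as a part of the complex of aminoacyl transfer RNA synthetases. Of 33 genes of ribosome biogenesis 4 were higher and 6 lower, among them Nop14, a factor of small subunit assembly (-1.18 ± 0.25), and Sbds, which readies the large subunit (0.49 ± 0.10). Of 9 genes of mTORC1 and its targets 1 was higher, the kinase subunit Mlst8 (0.56 ± 0.11). Of 4 genes of the cytosolic ribosome with other names, 1 was higher (Rpl7l1, a paralogue of Rpl7, by 0.26 ± 0.085) and 1 lower (Rpl22l1, above), and Fau, the precursor of a small subunit protein, differed by 0.36 ± 0.16 (adjusted p = 0.116).

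Markers of cell types moved in the same comparison. Of 9 round spermatid genes 0 were higher and 5 lower (median -0.732), and their mean level of 10.93 to 10.97 at 10 µg/ml lay below the 11.48 to 11.56 of the controls. Of 9 elongating spermatid genes 1 was higher and 6 lower (median -0.663), with mean levels of 13.33 to 13.38 and 12.78 to 12.85. Of 11 Sertoli cell genes 5 were higher and 0 lower (median 0.288), with mean levels of 9.66 to 9.76 and 10.00 to 10.03, and of 5 peritubular myoid cell genes 3 were higher. Of 10 spermatocyte genes 1 was higher and 3 lower, of 7 spermatogonia genes 0 were higher and 1 lower, and of 5 endothelial genes 1 was higher. Of the tested genes of Leydig cells (7), macrophages (6), blood cells (2), adipose tissue (2), lymphocytes (1) and epididymis (1), 0 were called. The markers crossed the same border: round spermatid genes had mean levels of 11.43 to 11.65 in set 3 and 11.11 to 11.32 in set 4. The part of these cell types in the ribosomal protein differences was not tested.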

How the data were processed

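RNA from 46 mouse testes was measured on Illumina bead arrays. The main values are the log2 table the authors deposited. The tool lumi is named per the submitters' processing notes (version not given in the sources used here), and its steps are not stated. The authors also deposited raw intensity values, in which 33 of 45 array columns had their rows in another order; these were put back by rank matching to the log2 table (25692 probes matched, 5 not), and 1 column was not used because its name cannot be told from a column number. Median intensity per array was 107.8 to 221.4, and the number of arrays limits the precision.

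Group means of the 18 groups were fitted with limma 3.58.1 in R 4.3.3 over 15418 probes, with contrasts of dose against control, dose-rank slopes and times, two-sided moderated tests and Benjamini-Hochberg adjustment. On data simulated for 10 µg/ml at 6 months over 15418 probes, 64% of changes of 0.5 and 91% of changes of 1 log2 unit were recovered, with 11 false calls. The simulated noise was independent between arrays, with no step between sets and no array that stood apart. The recovery is over all probes, and members varied more than the average probe. Same-numbered replicates did not deviate together (306 pairs, median correlation 0.00562, 43 over 0.1), so no block was used. Named probes are up to 10 called rises and 10 falls per comparison, the smallest p-values where under 3 were called, paralogues, stalk and X-linked genes, and genes whose probes differ. Members and lists (translation, mTORC1, ribosome biogenesis and cell type markers) were chosen with earlier results of these data known. Alternatives changed the scaling, filter, arrays, weights and set term.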

Additional observations from a re-analysis of the deposited data

Results flagged for a closer look

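The slope over the dose rank differed between times, by a test of the difference itself in limma, for 14 values of ribosomal protein probes. In log2 per dose step, the slope at 6 months minus that at 1 month was -0.385 for Rps9 (ILMN_1214918), -0.319 for Rpl35a, -0.2987 for Rpl39l, -0.2082 for Rpl29, -0.1917 for Rpl5 and -0.1355 for Rps3 (ILMN_2637639). It was 0.2063 for Rps2, 0.1223 for Rps26, 0.07734 for Rps6 and 0.07077 for Rpl22. Adjusted p-values ran from 0.000609 (Rpl29) to 0.0483 (Rps2). Over 46 fits that each left out 1 array, the call of Rps2 was lost in 31, that of Rps26 in 27, that of Rps6 in 8 and that of Rps3 in 2, and those of the other probes in 0. The slope at 12 months minus that at 1 month was 0.2154 for Rps10, 0.1117 for Rps27, 0.09797 for Rpl13a and -0.1845 for Rps3 (ILMN_2637639), with adjusted p-values from 0.0162 to 0.0353. In the fits without 1 array these calls were lost in 6 for Rps27, 3 for Rps3, 2 for Rps10 and 1 for Rpl13a. The doses lie in different sets at each time. The difference between 6 and 1 months could not be estimated with set as a fixed term, and within sets 1 to 3 limma called 0 of these probes. With set as a fixed term the difference between 12 and 1 months was 0.085 for Rps10, 0.072 for Rps27, 0.025 for Rpl13a and -0.093 for Rps3, and 0 members were called.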

How the results depend on the processing

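Counts of ribosomal protein probes called are given here in the order 0.1, 1 and 10 µg/ml at 6 months, the slopes at 1, 6 and 12 months, the differences of slopes between 6 and 1 months and between 12 and 1 months, then 6 against 1, 12 against 6 and 12 against 1 months, then the other 12 dose comparisons together. The counts with the deposited values were 5, 1, 13, 4, 20, 0, 10, 4, 13, 9, 26 and 0, and with set as a random term they were 5, 1, 13, 4, 20, 0, 10, 5, 14, 9, 27 and 0 (estimated correlation within sets -0.00238). Most groups lie within a single set, so the group means take up most of a step between sets. This correlation therefore cannot show whether there is such a step. With array weights they were 24, 17, 30, 18, 31, 3, 16, 13, 30, 24, 44 and 44. With median-centred log2 intensities the counts were 40, 29, 28, 12, 45, 2, 7, 24, 19, 2, 31 and 4. Of all probes 30.5%, 20.4%, 19.9%, 14.8%, 43.7%, 1.18%, 7.19%, 20.6%, 19.5%, 1.08%, 31% and 0.182% were called with these. With only the arrays of the times compared the counts were 15, 0, 23, 0, 30, 1, 7, 0, 10, 23, 19 and 0. Of all probes 11.2%, 0.00649%, 27.4%, 0.253%, 37%, 0.48%, 8.31%, 1.86%, 14.8%, 21.3%, 35% and 0.0503% were called in those fits. Leaving out each array in turn gave 2 to 20, 0 to 10, 4 to 24, 4 to 9, 16 to 31, 0 to 1, 6 to 12, 1 to 10, 8 to 20, 7 to 25, 23 to 41 and 0 to 26. Cyclic loess gave 8 at 0.1 µg/ml, 8 for the slope at 1 month and 7 for the slope difference between 12 and 1 months. At 0.1 µg/ml leaving out the dimmest 60% gave 8 and no filter on dim probes gave 3. Normexp with quantile normalization gave 3 there (4.76%, beside 4.95% of all probes). With replicate number as a block, which the pairing check did not bear out, 12 against 6 months gave 16 (25.4%, beside 13.4% of all probes). The other counts stayed within 1.5 times. Set as a fixed term gave 0 at 0.1 µg/ml, 0 at 1 µg/ml and 0 for the slope at 1 month and for the slope difference between 12 and 1 months. In each of these 0% of all probes were called. Set as a random term without the array that stood apart, added after the data were seen, gave 0 at 0.1 and 1 µg/ml and for the slope at 1 month. It gave 1 for either difference of slopes (1.59% of the set, beside 1.07% and 0.48% of all probes). The alternatives for the slope difference between 12 and 1 months were also added then. Sets 1 to 3 alone gave 0 for the slope at 6 months, the slope difference between 6 and 1 months and 6 against 1 months, and sets 4 to 6 alone gave 0 for the slope at 6 months, 4 for that at 12 months and 1 for 12 against 6 months. Brightest probe per gene kept every count within 1.5 times. Quantile normalization of the intensities did so too, but it uses ranks alone and the rows were matched by rank to the deposited table, so it is no independent check, and the same holds in part for normexp with quantile normalization. The 105 named values counted here were all called with the deposited values, and for each of them 46 alternatives left out 1 array. Where that array was outside the groups compared, the difference itself could not change. Over 6164 pairs of 1 of the 105 named values and 1 alternative, leaving out each array included, the value kept its direction and side of the threshold in 5639, lost the call in 482 and turned its sign in 43. With median-centred intensities those that turned were Rps4x at 10 µg/ml (-0.07783), Rpl22 at 0.1 µg/ml (-0.1387), the 6-month slopes of Rpl22 (-0.01764), Rps26 (-0.04204), Rps6 (-0.09858) and Rps4x (-0.07442), the slope difference of Rps6 (-0.01019), 6 against 1 months for Rps6 (-0.09263) and Rpl24 (-0.081), and 12 against 1 months for Rplp0 (-0.0168). With set as a fixed term they were Rpl5 at 1 µg/ml (0.152) and, at 0.1 µg/ml, Rpl5 (0.2119), Rpl39l (0.5216) and Rpl29 (0.1583). In sets 1 to 3 they were the 6-month slopes of Rps9 (0.1873), Rps16 (0.0167), Rpl5 (0.01599), Rpl35a (0.000459), Rpl3l (-0.01715), Rps27 (0.02934), Rpl39l (0.1421), Rpl39 (0.1546), Rpl36a (0.1264), Rps26 (-0.05266), Rpl29 (0.04367), Rps25 (0.04369), Rps6 (-0.07231) and Rps10 (0.01215). The slope differences there were 0.09319 for Rps9, 0.09268 for Rpl5, 0.005977 for Rpl39l, -0.02547 for Rps26, 0.01655 for Rpl29 and -0.04051 for Rps6, and 6 against 1 months gave 0.4873 for Rps9, 0.003428 for Rpl5, 0.2991 for Rpl35a, 0.2552 for Rpl29 and -0.008048 for Rps6. In sets 4 to 6 the 6-month slopes of Rpl3l (-0.005128), Rps27 (0.002875), Rpl39l (0.0816) and Rpl36a (0.03855) turned. The cause was not tested. The fits of sets 1 to 3 and of sets 4 to 6 hold fewer arrays and have no set term. Probes near the floor show small differences only.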
